A study of Rattus norvegicus with 4 samples.

Results

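The inflammatory cytokines and chemokines described here are 7 of the 20174 gene probes on a rat microarray. They were chosen as textbook mediators of inflammation by Ensembl gene ID, namely Il1b (ENSRNOG00000004649), Il6 (ENSRNOG00000010278), Tnf (ENSRNOG00000000837), Cxcl1 (ENSRNOG00000002802), Cxcl2 (ENSRNOG00000002792), Ccl2 (ENSRNOG00000007159) and Il10 (ENSRNOG00000004647). All 7 IDs were found on the array and in the deposited value table. The symbols came with that choice, since the files themselves hold IDs only. The samples were fracture callus, the repair tissue around a broken bone, from male Sprague–Dawley rats aged 12 weeks. All rats had a closed transverse break of the right femoral shaft with a wire placed in the marrow canal. The diabetic rats had received 1 intravenous injection of streptozotocin (40 mg/kg), which kills the beta cells that make insulin, and had blood glucose over 300 mg/dl. The control rats had received sodium chloride and had normal blood glucose. The 4 groups were diabetic callus of day 11, control callus of day 11, diabetic callus of day 5 and control callus of day 5. In each group the callus of 5 rats was pooled and measured on 1 array, so no difference between arrays has a replicate check and none carries a p-value. In whole callus, fewer cells of a type and less RNA per cell cannot be told apart.

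Fracture repair opens with an inflammatory phase in the clot around the break, in which resident and incoming immune cells release cytokines. Il1b, Il6 and Tnf are the classical pro-inflammatory cytokines. Cxcl1 and Cxcl2 recruit neutrophils through the receptor Cxcr2, Ccl2 recruits monocytes through Ccr2, and Il10 restrains macrophage activation. Many of these genes are known targets of the transcription factor NF-kappaB, whose binding sites are called kappaB sites. In this tissue the early inflammatory signal is held to be needed for repair, while a prolonged one is held to impair it.

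As background, the stretches just before the start of 4 of these genes are shown. Whether kappaB sites have a part in the levels given below was not tested. Of the 7 genes, 5 had an entry in the RefSeq promoter table (Cxcl1, Cxcl2, Il6, Il1b and Tnf). Each sequence is the 150 bases before the annotated start in build GRCr8, written 5′ to 3′ on the strand of the gene. Capitals mark matches to the kappaB-like letters GGGNNTTTCC on either strand.
Cxcl1, chr14:17479322-17479471, minus strand: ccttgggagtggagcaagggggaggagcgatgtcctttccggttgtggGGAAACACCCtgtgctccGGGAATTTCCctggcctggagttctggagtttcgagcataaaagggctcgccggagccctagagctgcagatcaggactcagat
Cxcl2, chr14:17467256-17467405, minus strand: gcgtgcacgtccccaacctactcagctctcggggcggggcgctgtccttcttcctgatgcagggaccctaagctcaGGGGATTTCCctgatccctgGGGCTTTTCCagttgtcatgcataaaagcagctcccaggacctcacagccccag
Il6, chr4:5894576-5894725, minus strand: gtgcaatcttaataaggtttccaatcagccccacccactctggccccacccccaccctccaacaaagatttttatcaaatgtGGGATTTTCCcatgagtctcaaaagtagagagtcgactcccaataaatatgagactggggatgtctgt
Il1b, chr3:137036582-137036731, minus strand: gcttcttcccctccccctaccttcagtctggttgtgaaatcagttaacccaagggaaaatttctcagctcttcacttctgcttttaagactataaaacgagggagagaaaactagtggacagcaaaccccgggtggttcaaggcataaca

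Cxcl1 held 2 matches, 1 on each strand, Cxcl2 held 2 that do not overlap, and Il6 held 1. The match of Il6 ran from base 68 to base 59 before the start. The stretches of Il1b (shown) and Tnf (not shown) held none. Of 33469 promoters in the same table, 0.795% held a match in this window. Each match describes the letters in this window and no more. Cxcl1 and Cxcl2 lie on chromosome 14 and are next to each other in the RefSeq gene table, with 0 genes starting between them. They are related chemokine genes. The probe sequences were not used here, so how far the probes keep such relatives apart was not tested.

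The values given per array are the deposited processed intensities. They are on a linear scale on which the listed genes of every array have a median of 25. A gene is null there when its spot does not exceed a limit set somewhat above the mean of the blank spots. Only 1 of the 28 values was null, that of Il10 in diabetic callus on day 5. Folds on the intensity + 50 scale are those of the background-corrected, quantile-normalized signals, to which 50 was added before taking logs. That addition shrinks the folds of dim genes. Folds of the deposited values carry no such addition, so for dim genes they rest on a few units of signal.

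All 7 genes were highest in control callus of day 11, except that Il10 was not when arrays were scaled to their 75th percentile instead. The control day 11 array was the highest of the 4 for 27.4% of 17661 genes that exceeded the blank-spot limit on 1 or more arrays. On the intensity + 50 scale, 4 of the 7 (Il1b, Cxcl2, Cxcl1 and Ccl2) were at least 2-fold higher there than on each of the other 3 arrays, which held for 0.657% of all genes. In the deposited values, 6 of the 6 members listed on all arrays met the same condition, against 1.76% of genes. Ranked by the gap between control day 11 and the next array, Il1b was number 4, Cxcl2 number 5 and Cxcl1 number 9 of 17661 genes.

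**Figure D1:**
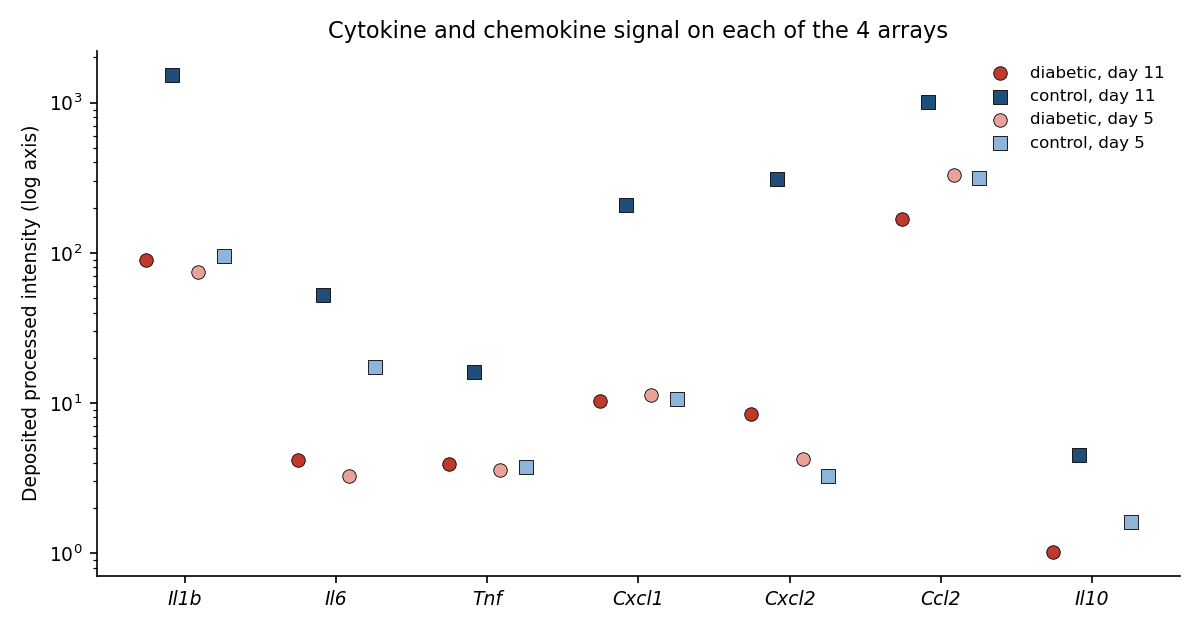
Deposited processed intensity (log axis) of the 7 genes on the 4 arrays, with circles for diabetic and squares for control callus, and dark colours for day 11. Each point is 1 array of pooled callus, Il10 of diabetic day 5 is null and not drawn, and the control day 11 square is the top point of every gene (1537 for Il1b, 4.47 for Il10).

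Of the pro-inflammatory cytokines, Il1b, which activates many cell types through the interleukin 1 receptor, had a deposited intensity of 89.2 in diabetic and 1537 in control callus on day 11, and of 74.0 in diabetic and 94.7 in control callus on day 5. The control day 11 array thus stood alone, and the other 3 arrays spanned a log2 range of only 0.29 on the intensity + 50 scale. On day 11 Il1b was 14.0-fold lower in diabetic callus on that scale (log2 difference -3.81) and 17.2-fold lower in the deposited values. Counted from the most negative, its day 11 difference was number 9 of 16732 genes. On day 5 it was 1.21-fold lower in diabetic callus.

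Il6, a cytokine that drives the acute phase response, had a deposited intensity of 4.17 in diabetic and 52.5 in control callus on day 11, and of 3.26 in diabetic and 17.3 in control callus on day 5. Both control arrays were above both diabetic arrays. It was 2.44-fold lower in diabetic callus on day 11 and 1.37-fold lower on day 5 on the intensity + 50 scale. In the deposited values it was 12.6-fold and 5.30-fold lower, which made it the only member past 2-fold on day 5. Both differences of Il6 depend on which background is taken. Its spot had a median of 143.5 and a local background of 135.6 on the control day 11 array, and of 69.22 and 65.33 on the control day 5 array. With the local background the log2 difference was -0.08 on day 11 and -0.01 on day 5. Over the genes fitted, however, the local background rose with the spot median on every array (correlation of log values 0.981 to 0.99). Brighter spots thus had a higher local background, and how much spot signal this correction takes off was not tested.

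Tnf, an activator of endothelium and macrophages, was dim. It had a deposited intensity of 3.92 in diabetic and 16.1 in control callus on day 11, and of 3.60 in diabetic and 3.77 in control callus on day 5. Only the control day 11 array stood out. It was 1.37-fold lower in diabetic callus on day 11 on the intensity + 50 scale and 4.12-fold lower in the deposited values. On day 5 the 2 arrays were within 1.05-fold of each other.

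Of the neutrophil-attracting chemokines, Cxcl1 had a deposited intensity of 10.3 in diabetic and 209.4 in control callus on day 11, and of 11.3 in diabetic and 10.6 in control callus on day 5. The arrays other than control day 11 were nearly level, with a log2 range of 0.06 on the intensity + 50 scale. On day 11 it was 6.07-fold lower in diabetic callus on that scale and 20.3-fold lower in the deposited values. Cxcl2 had a deposited intensity of 8.38 in diabetic and 309.3 in control callus on day 11, and of 4.23 in diabetic and 3.25 in control callus on day 5. Again 1 array stood above the rest. On day 11 Cxcl2 was 9.06-fold lower in diabetic callus on the intensity + 50 scale and 36.9-fold lower in the deposited values, the largest ratio of the 7 genes. Its signal on the other 3 arrays was 5.69 to 13.97 units above the blank mean, so the size of that ratio rests on dim spots.

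The monocyte-attracting chemokine Ccl2 was well above background on every array. It had a deposited intensity of 167.9 in diabetic and 1005 in control callus on day 11, and of 329.5 in diabetic and 317.0 in control callus on day 5. The day 5 arrays were nearly equal, and diabetic callus of day 11 was the lowest of the 4. On day 11 Ccl2 was 5.60-fold lower in diabetic callus on the intensity + 50 scale and 5.99-fold lower in the deposited values. The 2 scales gave similar folds for this comparison. An addition of 50 weighs less at this brightness than for dim genes, but the scales also differ in how the arrays were normalized.

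Il10, the anti-inflammatory cytokine of the set, was near background. It had a deposited intensity of 1.02 in diabetic and 4.47 in control callus on day 11, and on day 5 it was null in diabetic callus and 1.61 in control callus. In diabetic callus on day 5 its spot median of 39.56 was under the blank-spot limit of 39.71. Only its control day 11 spot also exceeded a limit set on the negative control spots. It was 1.11-fold lower in diabetic callus on day 11 on the intensity + 50 scale and 4.38-fold lower in the deposited values. Its spots were only 1.20 to 8.68 units above the blank mean. On day 5, with the diabetic array under the limit, only a bound can be given. At 1.02-fold lower in diabetic callus it equals the plain fold, so no size can be read from it. With 75th percentile scaling the log2 difference was 0.13, in the other direction.

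Across the set, all 7 genes were lower in diabetic callus on day 11, and 5 of 7 were at least 2-fold lower on the intensity + 50 scale, where 2.1% of 16732 genes were. The median log2 difference was -2.49 over the 7 genes and 0.001 over all genes. In the deposited values 7 of 7 were at least 2-fold lower, where 7.18% of genes were. With the local background column in place of the blank spots, 4 of 7 were, where 3.07% of genes were, and the log2 differences shrank to -2.20 for Il1b, -2.25 for Cxcl2 and -1.36 for Cxcl1. That of Ccl2 was -2.60. As given for Il6, the local background rose with the spot signal itself, and its share in this shrinkage was not tested. On day 5, 0 of 7 were at least 2-fold lower on the intensity + 50 scale, where 0.969% of genes were, and the median log2 difference was -0.03. In the deposited values, 1 of the 6 listed members passed 2-fold on day 5, namely Il6, where 5.15% of genes were at least 2-fold lower.

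**Figure D2:**
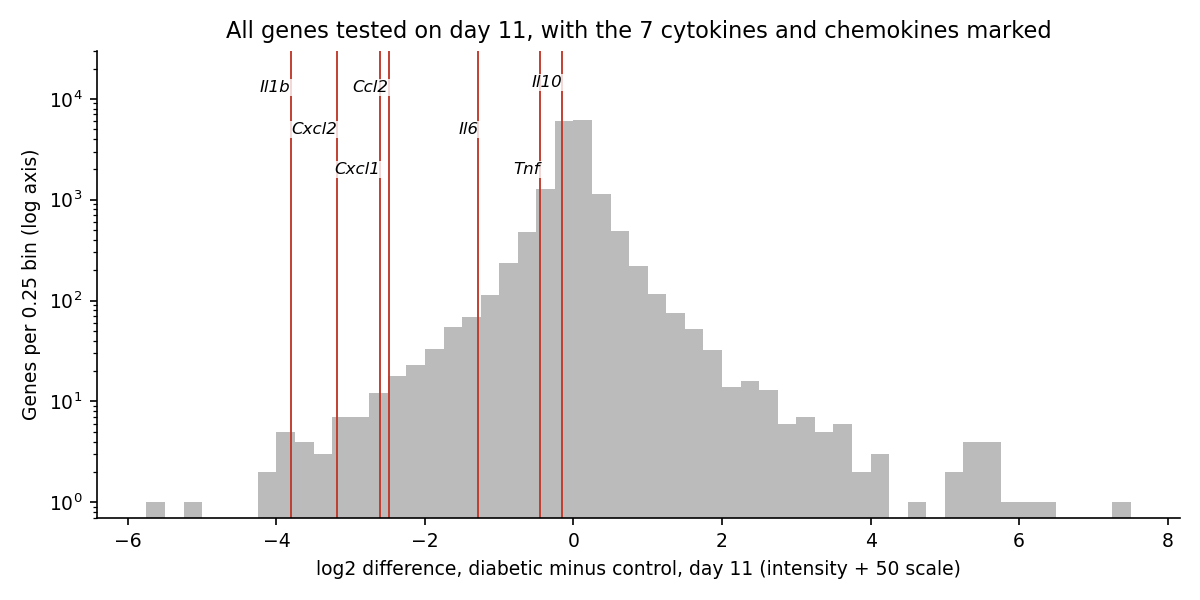
Number of genes (log axis) by log2 difference, diabetic minus control callus of day 11, on the intensity + 50 scale, for all 16732 genes tested, with red lines at the 7 cytokines and chemokines. Il1b (-3.81), Cxcl2 (-3.18), Cxcl1 (-2.60) and Ccl2 (-2.49) lie in the thin lower tail, while Tnf (-0.45) and Il10 (-0.15) lie within the bulk.

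The days were then compared within each condition, which asks how the inflammatory signal stood as the callus matured. In diabetic callus 0 of the 6 members listed in the deposited values were 2-fold apart between the days, where 7.08% of genes were. On the intensity + 50 scale 0 of 7 were, where 1.35% of 16803 genes were. With so few members, counts of 0 differ little from these shares. The largest difference on the intensity + 50 scale was that of Ccl2, 1.66-fold lower on day 11 (log2 difference -0.73). It was number 138 from the most negative of all genes. With the local background its log2 difference was 0.07. In the deposited values Cxcl2 was 1.98-fold higher and Ccl2 1.96-fold lower on day 11. The median log2 difference of the 7 genes in diabetic callus was 0.01.

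In control callus all 7 genes were higher on day 11 than on day 5. On the intensity + 50 scale the median log2 difference was 1.71 over the 7 genes and -0.006 over all genes. At least 2-fold higher were 4 of 7 on the intensity + 50 scale, where 0.965% of 16893 genes were, and 7 of 7 in the deposited values, where 3.17% were. Il1b was 14.1-fold higher on day 11, number 3 of all genes. Cxcl2 was 10.5-fold higher (number 6), Cxcl1 6.17-fold higher (number 13) and Ccl2 3.26-fold higher (number 43). Il6 was 1.82-fold, Tnf 1.38-fold and Il10 1.10-fold higher on day 11 on the same scale. With the local background, which rose with the spot signal, 4 of 7 were again at least 2-fold higher, where 1.79% of genes were. The log2 difference was then 2.01 for Il1b (3.82 with the blank spots), 2.17 for Cxcl2 (3.40), 1.34 for Cxcl1 (2.63) and 0.06 for Il6 (0.86). That of Ccl2 was 2.51 (1.71). This comparison and that of diabetic with control callus on day 11 share the control day 11 array, so they are not independent of each other.

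**Figure D3:**
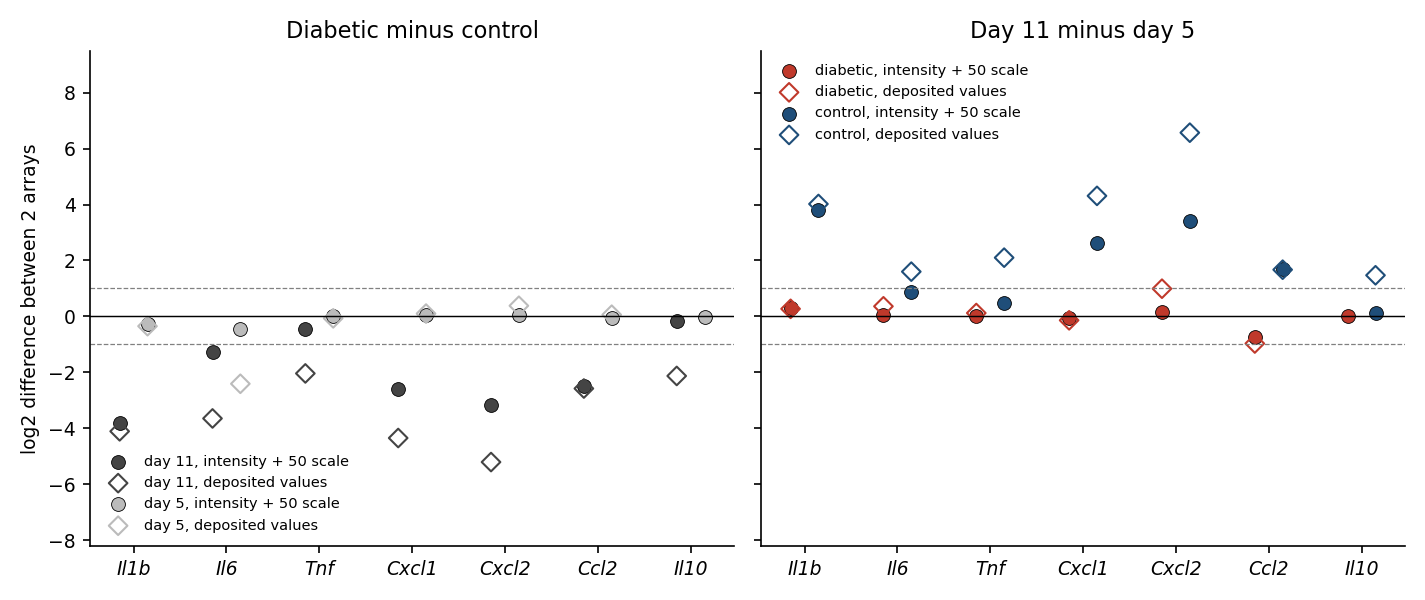
Log2 differences of the 7 genes between diabetic and control callus (left, day 11 beside day 5) and between day 11 and day 5 (right, diabetic beside control callus), with filled circles for the intensity + 50 scale and open diamonds for the deposited values. Dashed lines mark 2-fold, and the points past them are day 11 diabetic minus control (down to -5.21), control day 11 minus day 5 (up to 6.57) and, in the deposited values, Il6 of day 5 (-2.41).

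Set against day 5, the diabetic minus control difference of day 11 was more negative for all 7 genes. The change in the log2 difference was -3.53 for Il1b, -3.24 for Cxcl2, -2.66 for Cxcl1, -2.44 for Ccl2, -0.83 for Il6, -0.46 for Tnf and -0.12 for Il10. A change of -1 or lower was thus found for 4 of 7, where 1.12% of 17661 genes had one. Of the 6 members listed on all arrays in the deposited values, 6 had one, where 4.86% of genes did, with -1.25 for Il6 and -1.98 for Tnf. With 1 array per group this change was not tested.

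An additive model of condition and day over the 4 arrays leaves 1 residual degree of freedom per gene, and takes that same change between the days as its error term. In limma, 0 of 17661 genes had an adjusted p under 0.05 for diabetes averaged over the days, and 2657 genes (15%) had an unadjusted p under 0.05, among them 0 of the 7. Il6 had an averaged log2 difference, diabetic minus control, of -0.87 (SE 0.272) and a limma adjusted p of 0.358. Il1b had one of -2.04 with a wider SE of 1.15 and a limma adjusted p of 0.529. For Tnf, Il10, Ccl2, Cxcl1 and Cxcl2 the limma adjusted p was between 0.555 and 0.607. For the day effect averaged over conditions, limma again called 0 genes, with 1613 (9.13%) at an unadjusted p under 0.05, and the adjusted p of the 7 genes was between 0.715 and 0.919. Since 4 of the 7 genes stood at least 2-fold above all other arrays on 1 array, the size of their error term follows from the pattern itself, and the lack of calls does not show that the groups were alike.

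The control day 11 array also differed in its overall signal. Its blank spots averaged 40.86, against 38.37 to 38.75 on the other arrays, and its genes above the limit had a median net signal of 48.93, against 35.64 to 44.05. It had 15846 genes above the limit, against 15952 to 16377. The part of these differences in the results was not tested. The 7 spots lie in 5 separate blocks of the array. Over the 54 gene spots directly beside them, the log2 difference between diabetic and control callus on day 11 ran from -1.36 to 1.23. The median difference of the neighbours of each member lay between -0.12 and 0.02. Whether a local fault of an array has a part in the results was not tested. Repeated positive control spots within an array had a coefficient of variation of 7.98% to 28.8%, which covers spot-to-spot error only. The spread among the 5 pooled animals is not in the data. Markers of callus tissue and of immune cells were not checked, since the other IDs were not paired with symbols.

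**Figure D4:**
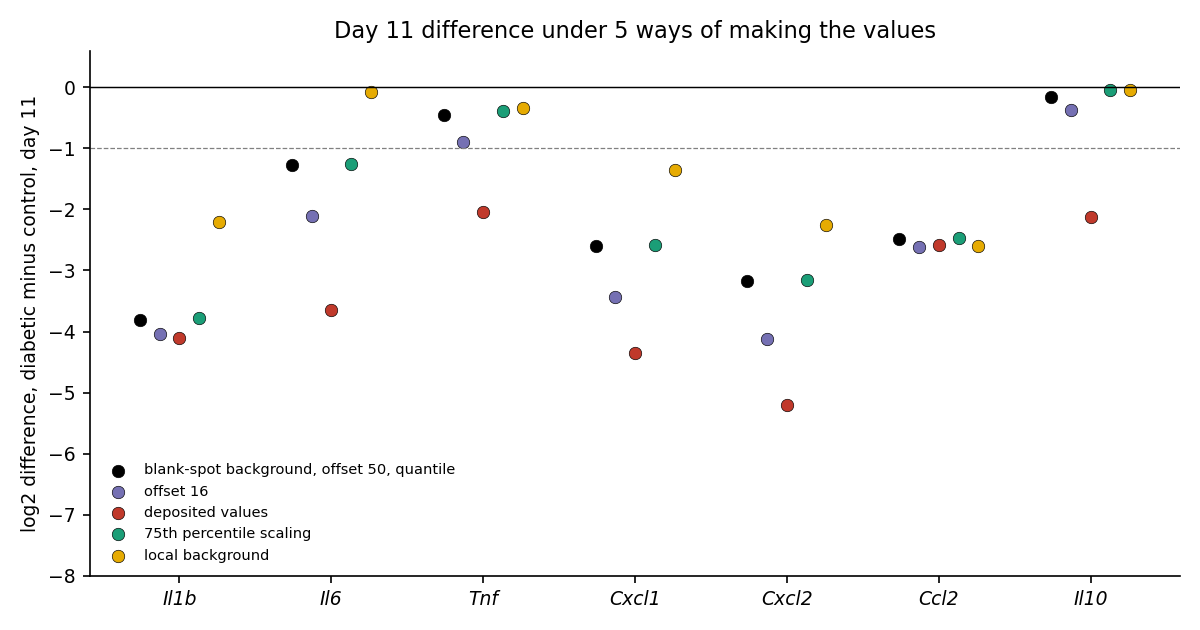
Log2 difference of the 7 genes between diabetic and control callus on day 11 under 5 ways of making the values, with a dashed line at 2-fold lower. Ccl2 stays between -2.46 and -2.61, whereas Il6 ranges between -3.65 with the deposited values and -0.08 with the local background, which rose with the spot signal.

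Among the 6 members above the limit on all 4 arrays, which leaves out Il10, the closest pair of profiles was that of Il1b and Cxcl2. After each gene's mean was subtracted, their log2 profiles were a distance of 0.574 apart, and Cxcl2 was the 4th nearest of 14682 genes to Il1b. Cxcl1 was number 9 (distance 1.17) and Ccl2 number 41 (distance 1.83). Cxcl2 was number 13 by nearness to Cxcl1, its neighbour on chromosome 14, at a distance of 0.632. The closest of all genes to Il1b were ENSRNOG00000031082 (distance 0.128) and ENSRNOG00000014378 (distance 0.274). The log2 difference of ENSRNOG00000031082 between diabetic and control callus on day 11 was -3.95, and that of ENSRNOG00000014378 was -4.16. These distances rest on 4 arrays and mostly restate which genes stood high on 1 of them.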

How the data were processed

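Callus RNA of 5 pooled rats per group was amplified, coupled to Cy5 and hybridised to 1 single-colour array, per the labels' protocols. Per the file headers, the deposited array files hold the median foreground intensity and a local background intensity of each spot, linear, with flags at 3 scanner gains. The deposited value table holds linear intensities. Each column lay on a straight line with spot median minus blank-spot mean. The scanner, its software and the annotation behind the probes: not given in the sources used here.

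Spot medians were corrected in limma 3.58.1 (R 4.3.3) by normexp with an offset of 50 and the blank-spot mean as background. Control spots and 13 flagged genes were dropped, leaving 20161, and arrays were quantile normalized. A gene was above the limit when its spot lay over the blank-spot mean by more than 2 SD, both computed without the outer 5% of blank spots on either side. A comparison took genes above it on at least 1 array. Differences are described by size (2-fold). The only test was limma with Benjamini-Hochberg adjustment over all genes. The number of arrays (4) limits the precision.

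The members, lists and tests were chosen with earlier results of these data known. All 7 members are named, with the 2 genes nearest in profile to the member of widest range. Lists of related cytokines, receptors and cell markers were not applied, because 0 of the 47357 genes of the reference table carry an Ensembl ID. Alternatives were the deposited values, an offset of 16, the local background, 75th percentile scaling, a negative control limit, no filter, and limma's trend and robust options.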

Additional observations from a re-analysis of the deposited data

Results flagged for a closer look

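The diabetic minus control difference had opposite signs on the 2 days for 3 genes. It was -0.45 on day 11 and 0.01 on day 5 for Tnf, -2.60 and 0.06 for Cxcl1, and -3.18 and 0.06 for Cxcl2 (log2, intensity + 50 scale). The day 5 values are close to 0. That of Tnf was -0.07 in the deposited values, and that of Cxcl2 was -0.06 with the local background. The opposite signs of Tnf and Cxcl2 thus depend on the processing. The day 11 minus day 5 difference had opposite signs in the 2 conditions for 2 genes. It was -0.73 in diabetic and 1.71 in control callus for Ccl2, and -0.04 in diabetic and 2.63 in control callus for Cxcl1. The diabetic value of Cxcl1 is also close to 0, at 1.03-fold lower on day 11. With the local background the value of Ccl2 in diabetic callus was 0.07, so its opposite signs depend on which background is taken. With 1 array per group these differences between days and between conditions were not tested.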

How the results depend on the processing

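No member that was at least 2-fold apart between 2 arrays changed sign under any alternative tried. On day 11, the number at least 2-fold lower in diabetic callus was 5 with an offset of 16, with 75th percentile scaling and with the negative control limit, 7 in the deposited values and 4 with the local background, where Il6 was at -0.08. In the deposited values the count on day 5 was 1, against 0, and that of control callus between the days was 7, against 4. Of the differences of single genes between 2 arrays, 12 moved by over 1.5-fold with the deposited values and 10 with the local background. With an offset of 16, 5 moved, and with 75th percentile scaling 0 did. The negative control limit leaves every value as it was and only changes which genes are compared, so it could move none. Under it, Il10 dropped out of the day 5 comparison and of that between the days in diabetic callus. The change of the diabetes effect was -1 or lower for 6 members with the deposited values, 5 with an offset of 16 and 4 otherwise. Limma called 0 members under every alternative for either effect, with a lowest adjusted p for diabetes between 0.188 and 0.989 among the alternatives. At an unadjusted p under 0.05 for diabetes, limma had 1 member with the deposited values, 1 with an offset of 16 and 1 with the trend and robust options, where 17.3%, 16.3% and 15% of all genes passed. The trend and robust options called 3 genes at an adjusted p under 0.05, and 0 of them were members. No array could be left out, since 3 arrays leave the model no residual degree of freedom. No paired analysis was possible because each group is 1 array.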
